A study of Homo sapiens with 6 samples.

Results

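The genes described here are the 240 protein-coding genes of chromosome 19 whose symbol is ZNF followed by a number. They were chosen by name and chromosome in the RefSeq gene table of GRCh38.p14, out of 1451 protein-coding genes of chromosome 19 and 19974 on chromosomes 1 to 22 and X. The other 1211 protein-coding genes of chromosome 19 served as the comparison. NONO, H3T11ph and H3K27ac were mapped in MDA-MB-231, a human triple-negative breast cancer cell line, by CUT&Tag, in which an antibody guides the Tn5 transposase to cut the DNA around its target. NONO was mapped in NC cells (genotype WT in the labels) and in NONO knockdown cells (NONO-KD), and both histone marks in NC and in PKM2 knockdown cells (PKM2-KD). Each of these 6 groups held 1 library, so nothing below has a replicate check, no test between conditions was possible and every difference between conditions is a difference between a pair of libraries. The study's methods describe both stable shRNA lines, with a control named Scr, and siRNA, with a control named NC. The CUT&Tag controls carry the name NC, but its CUT&Tag methods do not state which of these was used. A peak list shows neither expression nor the knockdown, so the identity of the cells and the loss of NONO or PKM2 were not checked here.

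Most ZNF genes encode C2H2 zinc finger proteins, transcription factors in which repeated zinc-holding loops read DNA. Many of those on chromosome 19 also carry a KRAB domain, which binds TRIM28 (KAP1) and through it SETDB1 and HP1 proteins to place H3K9me3 and silence transposable elements. They arose by tandem duplication and lie in clusters, whose gene bodies are known to carry H3K9me3 themselves while many of their promoters stay active. H3K27ac, the acetylation of a lysine of histone H3, marks active promoters and enhancers. H3T11ph, the phosphorylation of a threonine of the same histone, is attributed in the study to the kinase activity of nuclear PKM2. NONO is an RNA- and DNA-binding protein of paraspeckles.

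The zinc finger genes were longer than their neighbours, with a median of 23.1 kb against 12.8 kb for the other genes. They also stood more apart, with no other protein-coding gene within 2 kb for 67.9% of them and for 41.9% of the other genes. A gene is said below to have a region when a region of the list overlapped the window of 1 kb on either side of either gene end, and regions inside the body but clear of both windows are called interior. On chromosome 19 the lists held 4615 NONO regions in NC and 1673 in NONO-KD, 2100 H3T11ph regions in NC and 1479 in PKM2-KD, and 13721 H3K27ac regions in NC and 7375 in PKM2-KD. Most regions of the NONO NC list (94.6%) and of the H3K27ac NC list (79.3%) were of the narrowest width, against 1.19% to 2.05% in the other 4 lists. The settings of each peak calling are not given in the sources used here. For NONO and for H3K27ac the lists compared thus differ in form, and this difference cannot be told apart from the knockdown. Peak lists carry no read totals, so the depth behind each region is not given here. The intervals below are 95% intervals (Wilson for a share, Newcombe for a difference of shares). They cover counting error only, and genes of 1 library are not replicates.

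H3K27ac lay near an end of a like share of zinc finger and other genes in NC cells, and of a larger share of the zinc finger genes in PKM2-KD cells. In NC, 183 of 240 zinc finger genes had an H3K27ac region, 76.2% (70.5% to 81.2%), beside 919 of the other genes, 75.9%, 75.9% of all genes of chromosome 19 and 77.9% of all genes. The difference from the other genes was 0.362 percentage points, with an interval from −5.86 to 5.90. In PKM2-KD, 182 zinc finger genes had a region, 75.8% (70.0% to 80.8%), beside 59.2% of the other genes, 62% of all genes of chromosome 19 and 64.7% of all genes. That difference was 16.6 points (10.2 to 22.3). Both comparisons depended on the settings. Where a −log10 q of 5 or more was required, the NC difference became 11 points, and where only regions at least 2 times the narrowest width were counted it became 14.9 points. With windows of 2.5 kb the NC difference was −4.25 points (−9.30 to −0.198), and the PKM2-KD difference was 5.93 points with an interval from −0.0427 to 11.1, which holds 0.

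NONO lay near fewer zinc finger genes than other genes. In NC, 68 zinc finger genes had a NONO region, 28.3% (23% to 34.3%), beside 48.4% of the other genes, 45.1% of chromosome 19 and 28.4% of all genes. The difference was −20.1 points (−26.1 to −13.4), so the zinc finger genes stood at the level of all genes and below their own chromosome. In NONO-KD, 23 zinc finger genes had one, 9.58% (6.47% to 14%), beside 15.4% of the other genes, 14.4% of chromosome 19 and 10.1% of all genes, a difference of −5.78 points (−9.55 to −0.988). With wide regions only, which were 3.57% of the NONO NC regions near zinc finger genes, the NC difference was −2.22 points (−3.66 to 0.305). The NONO-KD difference was −0.942 points (−6.10 to 5.45) among genes with no other gene within 2 kb, −1.96 points (−5.88 to 3.12) around the RefSeq start, −1.56 points (−2.75 to 0.710) with wide regions and −3.73 points (−8.31 to 1.97) among genes of 10 to 50 kb, and each of these intervals held 0.

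H3T11ph lay near a smaller share of zinc finger than other genes in both lists, but not under every setting. In NC, 44 zinc finger genes had an H3T11ph region, 18.3% (14% to 23.7%), beside 25.3% of the other genes, 24.1% of chromosome 19 and 17.8% of all genes, a difference of −6.94 points (−12.0 to −1.06). In PKM2-KD, 36 had one, 15% (11% to 20.1%), beside 23.9% of the other genes, 22.4% of chromosome 19 and 17.3% of all genes, a difference of −8.86 points (−13.5 to −3.29). Around the annotated RefSeq start alone the differences were −2.72 points in NC (−7.86 to 3.39) and −2.75 points in PKM2-KD (−7.96 to 3.40). Among genes with no other gene within 2 kb they were −1.48 (−7.85 to 5.92) and −5.05 points (−10.5 to 1.61), and with wide regions −1.19 (−3.79 to 2.55) and −1.62 points (−3.88 to 1.80). All of these intervals held 0.

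**Figure D1:**
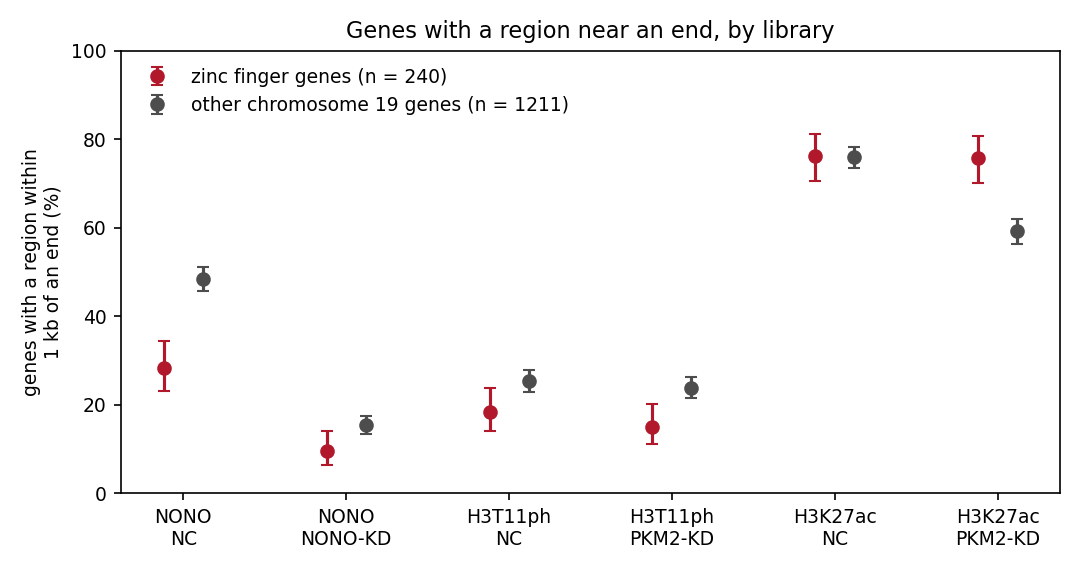
Share of genes (%, y axis) with a region within 1 kb of an end in each of the 6 libraries (x axis), for the 240 zinc finger genes and the 1211 other genes of chromosome 19, with 95% Wilson intervals as bars. The zinc finger genes lie below the other genes for NONO and H3T11ph, level with them for H3K27ac in NC (76.2% and 75.9%) and above them for H3K27ac in PKM2-KD (75.8% and 59.2%).

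The strand and start site were known for 210 zinc finger genes and 975 other genes, and these showed where the regions sat. H3K27ac lay within 1 kb of the 5′ end of 71.4% of the zinc finger genes in both lists, and within 1 kb of the 3′ end of 26.7% in NC and 13.8% in PKM2-KD. The other genes were less one-sided, with 59.8% and 48.2% at the 5′ and 3′ ends in NC and 50.5% and 29.8% in PKM2-KD. The start base itself lay inside an H3K27ac region in 36.7% (30.4% to 43.4%) of zinc finger genes in NC against 16.1% (13.9% to 18.5%) of the other genes, and in 51.0% (44.2% to 57.6%) against 22.6% (20.1% to 25.3%) in PKM2-KD. Around the RefSeq start, the difference between zinc finger and other genes was 14.8 points in NC and 25.9 points in PKM2-KD.

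The H3K27ac regions of the zinc finger genes were concentrated beside the start. In bins of 100 bp, the share of zinc finger genes covered in NC reached 36.2% beside the start and averaged 2.90% at 2 to 5 kb away, a ratio of 12.5, while the other genes went from 15.8% to 4.32%, a ratio of 3.65. In PKM2-KD the zinc finger genes went from 51.9% to 1.84%, a ratio of 28.2, and the other genes from 22.5% to 4.65%, a ratio of 4.83. The other genes were shorter and more often had another gene within 2 kb. What this adds to their cover at 2 to 5 kb was not tested. H3T11ph was also centred on the start, with a highest cover of 8.10% of zinc finger genes in NC and 5.71% in PKM2-KD, against 0.214% and 0.238% at 2 to 5 kb. For the other genes the highest cover was 5.85% and 5.74%, against 0.579% and 0.374%. The start base lay inside an H3T11ph region of NC at 7.14% (4.38% to 11.4%) of zinc finger genes and 3.28% (2.33% to 4.60%) of the other genes. In PKM2-KD these shares were 4.76% (2.61% to 8.54%) and 3.79% (2.77% to 5.19%). The median position of H3T11ph summits at zinc finger genes was −119 bp from the start in NC and −72 bp in PKM2-KD (negative is upstream). NONO in NC covered 9.52% of zinc finger genes beside the start and 10.6% of the other genes, and 1.13% and 2.89% at 2 to 5 kb. Within 1 kb of the RefSeq start it lay at 25.2% of the zinc finger genes and 35.3% of the other genes. In numbers of genes, NONO lay at the 5′ end of 22.9% and the 3′ end of 11.9% of the zinc finger genes, against 35.3% and 27% of the other genes.

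**Figure D2:**
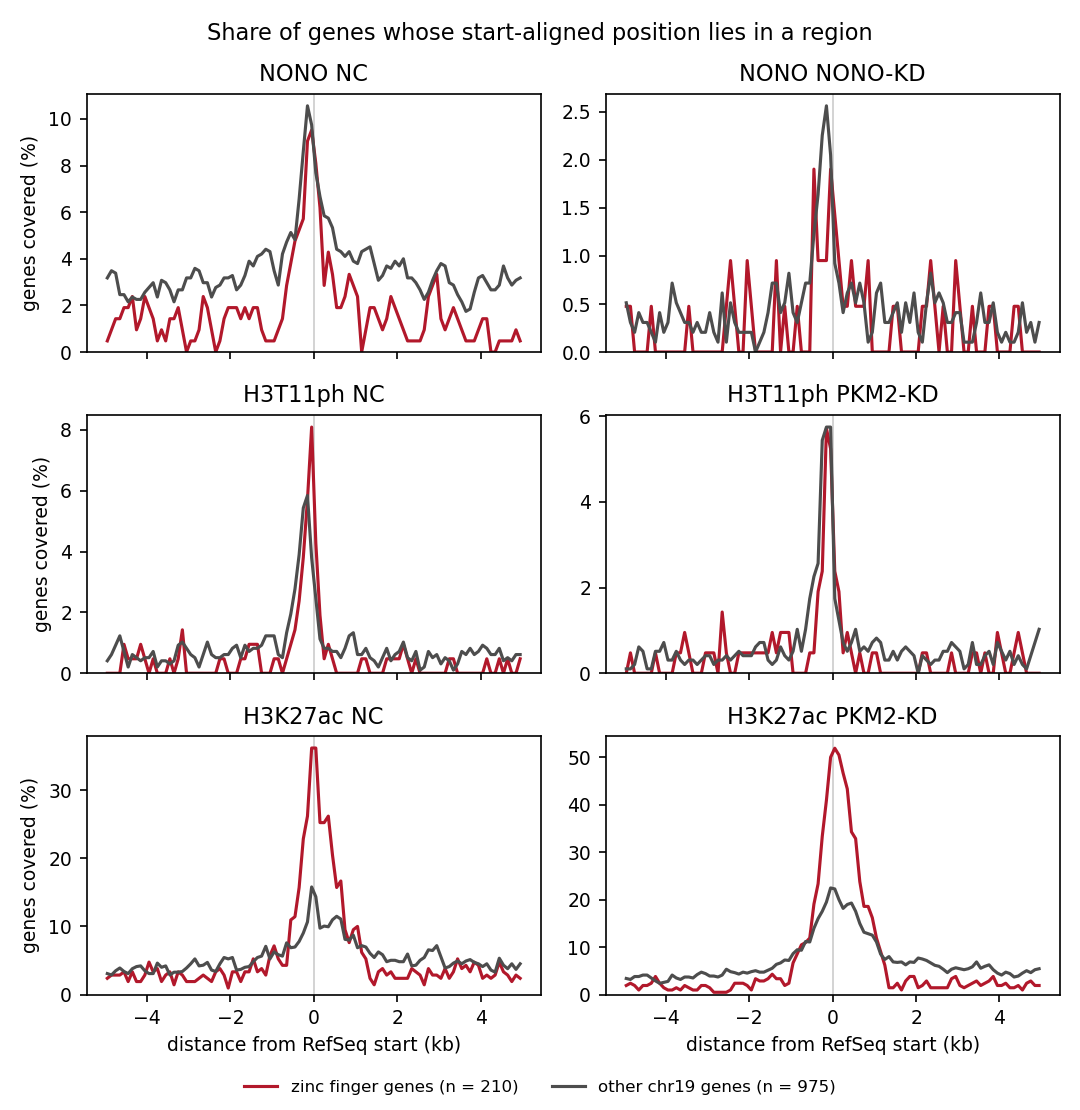
Share of genes (%, y axis, own scale in each panel) covered by a region in bins of 100 bp against distance from the RefSeq start (kb, x axis, negative is upstream), for 210 zinc finger genes and 975 other genes of chromosome 19. The H3K27ac curves of the zinc finger genes reach 36.2% and 51.9% at the start, above the 15.8% and 22.5% of the other genes, and lie below them at 2 to 5 kb.

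The promoters of 5 genes show the sequence under these regions, each as the RefSeq window of 300 bp (250 bp before the start and 50 bp after it, GRCh38.p14, 5′ to 3′ on the strand of the gene). They were taken from genes with some of the highest folds: ZNF562 for H3K27ac, ZNF708 and ZNF700 for H3T11ph in 1 list each, ZNF333 for NONO, and ZNF865 for a region in all 6 lists. ZNF562 lies at chr19:9675051-9675350 on the minus strand, ZNF708 at chr19:21329361-21329660 on the minus strand, ZNF700 at chr19:11924857-11925156 on the plus strand, ZNF333 at chr19:14689798-14690097 on the plus strand and ZNF865 at chr19:55605397-55605696 on the plus strand. Capitals mark CCAAT and the GC box GGGCGG, in either orientation.
ZNF562: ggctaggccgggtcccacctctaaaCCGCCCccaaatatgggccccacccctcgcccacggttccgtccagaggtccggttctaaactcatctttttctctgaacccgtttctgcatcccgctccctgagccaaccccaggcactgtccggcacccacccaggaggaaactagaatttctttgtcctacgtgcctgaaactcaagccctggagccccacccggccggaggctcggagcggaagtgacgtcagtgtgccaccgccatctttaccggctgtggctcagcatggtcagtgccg
ZNF708: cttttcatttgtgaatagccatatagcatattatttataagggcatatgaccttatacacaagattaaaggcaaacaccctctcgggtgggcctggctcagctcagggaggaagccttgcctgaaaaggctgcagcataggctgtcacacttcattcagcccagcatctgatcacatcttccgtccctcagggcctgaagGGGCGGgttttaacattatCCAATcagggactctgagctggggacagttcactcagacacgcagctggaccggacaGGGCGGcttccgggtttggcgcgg
ZNF700: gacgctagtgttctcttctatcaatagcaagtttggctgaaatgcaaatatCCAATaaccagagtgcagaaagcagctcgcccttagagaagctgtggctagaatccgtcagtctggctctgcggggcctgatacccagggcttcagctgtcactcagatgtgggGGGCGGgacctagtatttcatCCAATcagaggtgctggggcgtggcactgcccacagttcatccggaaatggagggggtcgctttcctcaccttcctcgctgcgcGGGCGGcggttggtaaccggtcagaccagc
ZNF333: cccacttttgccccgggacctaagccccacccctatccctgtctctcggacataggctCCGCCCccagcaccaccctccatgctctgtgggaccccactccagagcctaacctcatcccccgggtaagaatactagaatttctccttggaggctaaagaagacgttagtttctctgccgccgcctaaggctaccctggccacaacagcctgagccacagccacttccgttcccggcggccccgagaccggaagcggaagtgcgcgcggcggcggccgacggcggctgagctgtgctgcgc
ZNF865: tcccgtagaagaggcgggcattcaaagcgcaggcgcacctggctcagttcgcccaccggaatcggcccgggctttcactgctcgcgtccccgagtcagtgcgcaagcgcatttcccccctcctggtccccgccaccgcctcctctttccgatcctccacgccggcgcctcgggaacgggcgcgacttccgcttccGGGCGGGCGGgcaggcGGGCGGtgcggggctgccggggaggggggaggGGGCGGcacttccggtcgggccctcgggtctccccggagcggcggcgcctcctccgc

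The ZNF562 window lay wholly inside an H3K27ac region in both lists, with a fold (how far the summit stood above the local background, as given by the authors' peak caller) of 18.8 in NC and 43.9 in PKM2-KD, and with widths of 827 and 902 bp. Of the ZNF865 regions, those of H3K27ac in both lists and of H3T11ph in PKM2-KD overlapped its window, and the others lay outside it. The 5 windows differed widely in base composition, from 9 CpG in ZNF708 to 40 in ZNF865, with 14 in ZNF700, 18 in ZNF562 and 22 in ZNF333. ZNF700 and ZNF708 each held 2 GC boxes and at least 1 CCAAT, and ZNF865, which held 4 GC boxes, had no CCAAT. Across all windows the zinc finger genes held a median of 20 CpG (quartiles 14 and 26), against 21 (9 and 31) in the other genes and 22 in 15812 genes genome-wide. CCAAT or its reverse was found in 52.9% of the zinc finger windows, 37.3% of the other windows of chromosome 19 and 36.3% genome-wide. GGGCGG or its reverse, which can overlap other GC-rich motifs, was found in 69.5%, 65.5% and 58.5%. TATAAA or its reverse was rare, in 1.90%, 8% and 9.64%. The cores GCATGC (NRF1), TCGCGA (ZBTB33) and ATGGCGG (YY1), searched on both strands, were found in 8.57%, 3.81% and 8.57% of zinc finger windows, beside 8.41%, 4% and 8.31% of the other windows. These matches describe letters only, and genes were not compared by them beyond these shares.

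H3K27ac was found again after PKM2 knockdown at a larger share of the zinc finger genes than of the other genes. Of the 183 zinc finger genes with H3K27ac in NC, 158 also had it in PKM2-KD, 86.3% (80.6% to 90.6%), against 600 of 919 other genes, 65.3% (62.2% to 68.3%), and 73.8% of all genes. The difference was 21.1 points (14.6 to 26.3). A gene counted as found again also where its regions lay at different places in the 2 lists. By region, 167 of 330 H3K27ac regions near zinc finger genes in NC overlapped one of PKM2-KD, 50.6% (45.2% to 56.0%). At the other genes 552 of 1545 did, 35.7% (33.4% to 38.2%). What region width adds to these overlaps was not tested. Only 25 zinc finger genes had the mark in NC alone and 24 in PKM2-KD alone, 10.4% and 10%, beside 23.7% and 9.72% of all genes of chromosome 19 and 20.4% and 7.26% of all genes. The balance of these small classes turned with the settings: with a −log10 q of at least 5 they held 13 and 51 genes, with wide regions 10 and 56, and with both lists held to equal length 9 and 57. The larger share found again did not turn. It was 18.4 points with a −log10 q of at least 5, 9.47 with wide regions, 16.1 with lists of equal length, 8.68 with windows of 2.5 kb and 25.2 around the RefSeq start alone, where 139 of 155 zinc finger genes (89.7%) and 371 of 575 other genes (64.5%) were found again. Among genes with fewer than 15 CpG in the promoter window, 90.2% of the zinc finger genes and 47.7% of the other genes were found again, and among those with 15 or more, 87.1% and 74.8%, differences of 42.6 and 12.3 points. Where the NC fold was above the median of chromosome 19 genes with a region the difference was 16.1 points, and at or below it 19 points. Genes with no neighbour within 2 kb gave 28.2 points.

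The regions that carried the mark were wider at zinc finger genes. In PKM2-KD, H3K27ac regions near their ends had a median width of 370 bp and a median fold of 6.87, against 255 bp and 5.62 at the other genes, and 68.1% against 57.1% were at least 2 times the narrowest width. In NC the medians were 124 bp and 5.05, against 112 bp and 4.67, and 35.5% against 24.5% were wide. These medians were compared within a list only.

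NONO and H3T11ph were found again at much smaller shares. Of the 68 zinc finger genes with NONO in NC, 12 had it in NONO-KD, 17.6% (10.4% to 28.4%). The share was 18.1% for the other genes and 14.7% for all genes. The difference from the other genes was −0.442 points, with an interval from −8.42 to 10.7. NONO was in NC alone at 56 zinc finger genes and in NONO-KD alone at 11, 23.3% and 4.58%, beside 36.9% and 6.27% of chromosome 19 and 24.2% and 5.89% of all genes. Of the 44 zinc finger genes with H3T11ph in NC, 14 had it in PKM2-KD, 31.8% (20.0% to 46.6%). The share was 38.2% for the other genes and 33.4% for all genes. The difference from the other genes was −6.42 points (−19.5 to 9.23). H3T11ph was in NC alone at 30 zinc finger genes and in PKM2-KD alone at 22, 12.5% and 9.17%, beside 15.1% and 13.4% of chromosome 19 and 11.9% and 11.4% of all genes. For both targets the interval of this difference between shares of genes held 0. With windows of 2.5 kb, H3T11ph was found again at 20 of 60 zinc finger genes and 224 of 472 other genes, a difference of −14.1 points (−25.6 to −0.747), so the H3T11ph comparison depended on the window. Of 47 H3T11ph regions near a zinc finger gene in NC, 8 overlapped an H3T11ph region of PKM2-KD, 17.0% (8.89% to 30.1%), against 22.7% (18.3% to 27.8%) at the other genes. Of 84 NONO regions near a zinc finger gene in NC, 9 overlapped a NONO region of NONO-KD, 10.7% (5.74% to 19.1%). At the other genes 22 of 670 did, 3.28% (2.18% to 4.92%), so by region the zinc finger share was the larger. Counted from the NONO-KD regions, the shares were 29.6% (15.9% to 48.5%) and 13.3% (8.97% to 19.4%), with overlapping intervals.

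**Figure D3:**
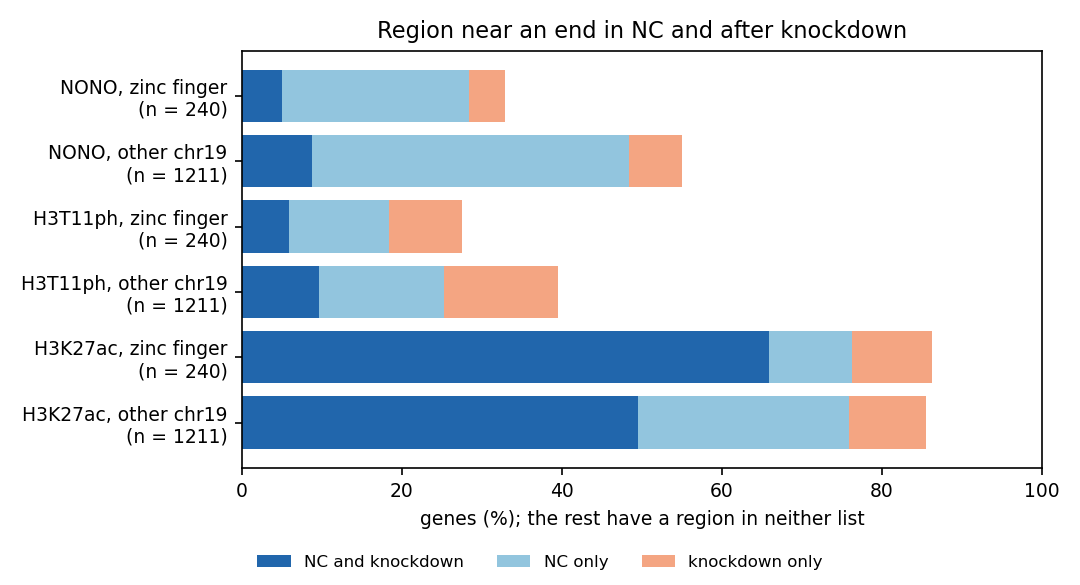
Share of genes (%, x axis) with a region near an end in both lists, in NC only or in the knockdown only, for each target, with 1 bar for the 240 zinc finger genes and 1 for the 1211 other genes of chromosome 19. H3K27ac in NC only makes up 10.4% of the zinc finger genes against 26.3% of the other genes, while NONO is in NC only at 23.3% and 39.6%.

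Several of the named genes had tall H3K27ac regions in both lists. ZNF888 had the highest fold in NC, 28.3, and 36.3 in PKM2-KD, with 4 and 2 regions. ZNF708 had 16.7 and 20.1. ZNF432 had 12.9 and 38.4, and ZNF83 had 13.4 and 34.8. ZNF274, whose protein binds the 3′ ends of other zinc finger genes and brings SETDB1 there, had 4 regions in NC (highest fold 16.2) and 2 in PKM2-KD (28.9), and no NONO or H3T11ph region near an end. ZNF91, which represses SVA elements, had 2 regions in each list, with highest folds of 7.23 and 14.5, and no other target near an end. ZNF93, which represses LINE-1 elements, had 10.9 and 11.2 for H3K27ac and 14 for H3T11ph in NC, with no H3T11ph region in PKM2-KD. Lower values were seen at ZNF43 and at ZNF420, a KRAB protein, neither with another target. ZNF43 had H3K27ac at 3.10 in NC, in a region of 112 bp with a −log10 q of 1.54, and at 9.71 in PKM2-KD. ZNF420 had 6.87 near its 3′ end in NC and 4.34 near its 5′ end in PKM2-KD, so these were not the same place. Folds of separate lists are not on 1 scale, so here and below values of different lists stand side by side without a comparison of their size.

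H3T11ph was strong at some zinc finger genes in a single list. The H3T11ph region of ZNF700 in PKM2-KD had a fold of 115, at chr19:11924990-11925209 over the printed window, with its summit at −56 bp from the start, and ZNF700 had none in NC. ZNF708 was the reverse, with a fold of 79.0 in NC at chr19:21329318-21329560 and none in PKM2-KD. ZNF100 and ZNF160 had 51.7 and 52.5 in NC and none in PKM2-KD, and ZNF726 had 58.4 in PKM2-KD and none in NC. The 52.5 of ZNF160 lay at its 3′ end, and its NC region at the 5′ end had 13.9. ZNF611 had 44.7 in PKM2-KD alone, with the summit at −127 bp from the start. Its NONO region of 144 in NC lay at the other end of the gene, 33366 bp from the start. ZNF580 had 3.76 in NC, 1742 bp from the start, and 57.2 in PKM2-KD, 440 bp from it. H3K27ac lay near an end of all 7 genes in both lists, from 3.36 to 16.7 in NC and from 3.27 to 31.8 in PKM2-KD. It did so at 158 of the 240 zinc finger genes, 600 of 1211 other genes and 11479 of all 19974 genes. The 7 were picked by their folds, and a link between the marks was not tested.

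H3T11ph lay near an end in both lists at 14 of 240 zinc finger genes, beside 117 of 1211 other genes and 1190 of all 19974 genes. The 14 were ZNF57, ZNF121, ZNF562, ZNF823, ZNF333, ZNF66, ZNF576, ZNF865, ZNF580, ZNF787, ZNF583, ZNF8, ZNF497 and ZNF837. ZNF583 had folds of 33.1 and 22.9, ZNF121 18.2 and 20.6, ZNF823 16.0 and 34.3, ZNF865 47.5 and 13.5, and ZNF8 12.7 and 14.7, in NC and PKM2-KD. These 5 had the highest lower value of both lists, counting regions at either end. The regions of a gene were not always at the same place. The 34.3 of ZNF823 lay at its 3′ end, 17906 bp from the start. At the 5′ end, where its NC region lay, the PKM2-KD fold was 30.3. The regions of ZNF583, ZNF121 and ZNF865 did not overlap between the lists. The summits of ZNF562 lay 33861 bp from the start in NC and 162 bp in PKM2-KD.

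The highest NONO folds in NC were 173 at ZNF333, 144 at ZNF611 and 141 at ZNF57, and none of these genes had a NONO region in NONO-KD. Those of ZNF611 and ZNF57 lay at the 3′ end, 33366 and 17285 bp from the start. The ZNF333 region covered chr19:14689796-14690064, and H3T11ph and H3K27ac regions of both conditions overlapped the same window, with H3T11ph at 5.10 and 19.8 and H3K27ac at 6.50 and 12.5. ZNF382 had a NONO fold of 123 in NC, at its 3′ end, and no other region near an end in any list. In NONO-KD the highest folds were 62.6 at ZNF71 and 58.7 at ZNF208, both at the 3′ end, and 60.2 at ZNF155. These 3 genes had no NONO region in NC. For ZNF155 and ZNF208 the NONO-KD region was the only one near an end in the 6 lists. ZNF224, a KRAB protein that acts as a repressor, had only H3T11ph in PKM2-KD, at 2.74.

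In NC cells, the more frequent combinations of targets at zinc finger genes had shares near those of all genes. No target lay near an end of 40 zinc finger genes, 16.7% against 11.6% of the other genes and 16.1% of all genes. H3K27ac alone lay at 111, 46.2% against 30.9% of the other genes and 45.2% of all genes. NONO and H3K27ac together lay at 38, 15.8% against 25.2% and 17.1%, and H3T11ph and H3K27ac at 16, 6.67% against 7.51% and 8.96%. All 3 targets lay at 18, 7.50% against 12.3% of the other genes and 6.60% of all genes. NONO alone lay at 7, 2.92% against 7.02% of the other genes and 3.77% of all genes. H3T11ph alone lay at 5, 2.08% against 1.57% and 1.37%. NONO with H3T11ph lay at 5, 2.08% against 3.88% and 0.891%. Where NONO was present, H3K27ac was too at 56 of 68 zinc finger genes, 82.4%, beside 77.5% of the other genes, and H3T11ph had H3K27ac at 34 of 44, 77.3% beside 78.4%. H3T11ph and NONO regions of NC overlapped an H3K27ac region of NC more often at zinc finger genes than at the other genes. Of 47 H3T11ph regions near zinc finger genes in NC, 24 overlapped an H3K27ac region of NC, 51.1% (37.2% to 64.7%), against 25.1% (20.5% to 30.3%) at the other genes. Of 84 NONO regions, 31 did, 36.9% (27.4% to 47.6%), against 22.2% (19.3% to 25.5%). Counted from the H3K27ac regions of NC, 9.70% overlapped NONO at zinc finger genes and 9.90% at the other genes. For H3T11ph these shares were 7.58% (5.18% to 10.9%) and 5.24% (4.24% to 6.47%). NONO regions of NC overlapped H3T11ph of NC at 16.7% (10.2% to 26.1%) and 11.5% (9.29% to 14.1%). The intervals of these last pairs overlapped. The H3K27ac regions of NC near zinc finger genes were also more often wide, 35.5% against 24.5%. What this width adds to the overlap was not tested. Over the 6 lists, 21 zinc finger genes had no region near an end in any, 8.75% against 7.51% of the other genes and 10.4% of all genes. ZNF497, ZNF787, ZNF837 and ZNF865 had one in all 6, 1.67% against 1.73% of the other genes and 0.741% of all genes.

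The 4 genes with a region in every list had these values. Taking the NC list and then the knockdown list for NONO, H3T11ph and H3K27ac in turn, the highest folds of ZNF865 were 38.6, 55.3, 47.5, 13.5, 3.64 and 17.1. Those of ZNF837 were 26.4, 39.7, 9.38, 8.06, 13.5 and 6.89. ZNF497 gave 35.8, 9.32, 5.61, 6.70, 16.3 and 17.5, and ZNF787 gave 11.8, 15.1, 10.8, 21.0, 9.64 and 10.6. ZNF497 and ZNF837 are close neighbours, at chr19:58354357-58362751 and chr19:58367623-58381030, both on the minus strand.

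Inside the gene body the zinc finger genes held fewer regions per length than the other genes, for every target and in every list. Per 100 kb of interior body, NONO counted 3.96 against 9.43 in NC, a ratio of 0.420 (0.368 to 0.478, exact counting interval), and 1.44 against 2.42 in NONO-KD, a ratio of 0.594 (0.472 to 0.740). H3T11ph counted 1.59 against 2.96 in NC, a ratio of 0.537 (0.433 to 0.660), and 1.35 against 2.34 in PKM2-KD, a ratio of 0.575 (0.454 to 0.722). H3K27ac counted 18 against 27.1 in NC, a ratio of 0.664 (0.624 to 0.707), and 6.27 against 13.8 in PKM2-KD, a ratio of 0.454 (0.409 to 0.504). The densities over all genes were 3.34, 1.49, 1.39, 1.23, 21.5 and 8.19 in the same order of lists, so for NONO in NC and for H3T11ph the zinc finger genes were at or above the level of all genes while below their chromosome. With wide regions only, the H3K27ac ratios were 0.394 in NC and 0.406 in PKM2-KD, and at a −log10 q of 5 or more the NC ratio was 0.532.

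**Figure D4:**
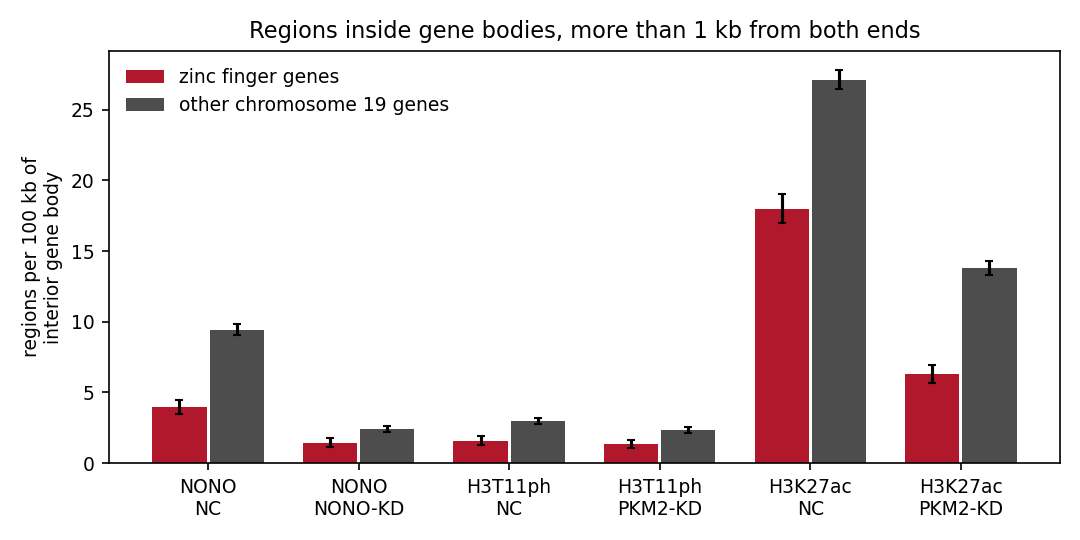
Regions per 100 kb of interior gene body (y axis) in each library (x axis) for the zinc finger genes and the other genes of chromosome 19, with exact 95% counting intervals as bars. The zinc finger bar is the lower of the pair in all 6 libraries, from 18 against 27.1 for H3K27ac in NC down to 1.35 against 2.34 for H3T11ph in PKM2-KD.

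Interior regions were spread over many genes. H3K27ac lay inside 219 of 240 zinc finger genes in NC, 91.2% against 78.2% of the other genes and 81.3% of all genes, so more of these longer genes held an interior region although the density was lower. In PKM2-KD it lay inside 152, 63.3% against 60.1% and 67.6%. NONO lay inside 132 in NC, 55% against 57.7% and 56.6%, and inside 67 in NONO-KD, 27.9% against 30.6% and 37.9%. H3T11ph lay inside 78 in NC, 32.5% against 35.4% and 38.5%, and inside 63 in PKM2-KD, 26.2% against 29.6% and 35.3%. ZNF536, a zinc finger gene known from the nervous system and, at 488 kb, the longest of the 240, held 14, 8, 4, 6, 98 and 14 interior regions in the order of lists above and no region near an end in any. ZNF83 held 2, 2, 1, 1, 30 and 18, and ZNF787 held 9, 1, 1, 1, 16 and 20. ZNF787 thus had 20 interior H3K27ac regions in PKM2-KD against 16 in NC, where ZNF536 had 14 against 98. ZNF331 (77.0 kb) and ZNF578 (63.3 kb) had no region near an end in any list either, with 16 and 17 interior H3K27ac regions in NC and 5 and 6 in PKM2-KD.

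The zinc finger genes fell into 10 clusters of at least 5 genes whose bodies lay under 500 kb apart, lettered A to J along the chromosome, with 12 genes outside them. The clusters ran from ZNF554 to ZNF77 (A, 5 genes), ZNF414 to ZNF846 (B, 13), ZNF653 to ZNF791 (C, 25), ZNF101 to ZNF254 (D, 37), ZNF302 to ZNF792 (E, 5), ZNF565 to ZNF573 (F, 24), ZNF575 to ZNF180 (G, 23), ZNF175 to ZNF331 (H, 39), ZNF628 to ZNF835 (I, 16) and ZNF264 to ZNF446 (J, 41). Regions shared between neighbours were few: of 330 H3K27ac regions near the zinc finger genes in NC, 15 lay near more than 1 of them, and 10 of 260 in PKM2-KD.

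H3K27ac lay at most genes of every cluster but G in NC. There, cluster J had it at 36 of 41 genes (87.8%), cluster H at 34 of 39 (87.2%), cluster D at 28 of 37 (75.7%) and cluster B at 7 of 13 (53.8%). Cluster G was lowest, with 10 of 23 (43.5%, 25.6% to 63.2%), while 9 of the 10 other genes within its span had the mark. In PKM2-KD, cluster G had 14 of 23 (60.9%), cluster B 11 of 13 (84.6%), cluster D 29 of 37 (78.4%), cluster H 31 of 39 (79.5%) and cluster J 33 of 41 (80.5%). Cluster intervals were wide and overlapped for most pairs, so their order is not resolved at these counts.

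Cluster D held long genes, with a median of 34.6 kb. As over the 240 genes, its number of genes with H3K27ac near an end was alike in both lists. Its interior density of H3K27ac regions was lower in PKM2-KD, also as over the 240 genes. Its H3K27ac counts near gene ends were 28 and 29 genes in NC and PKM2-KD, while its interior H3K27ac regions were 227 and 38, or 15.7 and 2.63 per 100 kb. For the 240 genes these were 183 and 182 genes, and 18 and 6.27 per 100 kb. A count of genes and a density of regions are unlike measures, so ends and bodies are not compared by them. With each region counted once per gene, the 240 genes had 345 and 270 H3K27ac regions near an end, and 1177 and 410 interior ones. Genes with an interior H3K27ac region numbered 219 and 152. Cluster F had 18 and 16 genes, and 10.6 and 2.70 per 100 kb. Over all genes the interior density was 21.5 and 8.19. Cluster I held 42 and 45 interior H3K27ac regions, 18.8 and 20.1 per 100 kb. H3T11ph lay near 8 genes of cluster D in NC and 2 in PKM2-KD, near 4 and 8 genes of cluster J, and near 6 and 5 of the 16 genes of cluster I. NONO in NC was most frequent in cluster F, at 11 of 24 genes (45.8%, 27.9% to 64.9%), and lay at none of the 5 genes of cluster E, where a share of up to 43.4% remains possible by its interval. With 1 library per group, these differences between clusters and conditions were not tested.

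**Figure D5:**
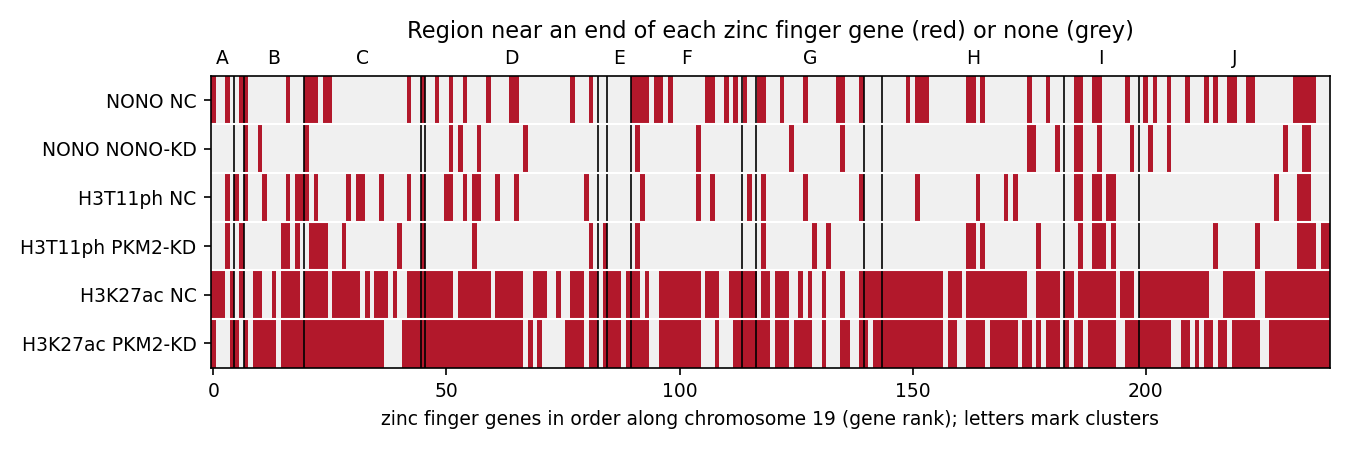
Zinc finger genes in order along chromosome 19 (x axis, gene rank) in each of the 6 lists (y axis), with red for a gene that has a region near an end, grey for none, and vertical lines and letters for the clusters. The H3K27ac rows are mostly red (183 and 182 of 240 genes), and the H3T11ph rows carry 44 and 36 red genes spread over the clusters.

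The partners of KRAB zinc finger proteins were counted in the same way. Of a list of 20 silencing genes (among them TRIM28, SETDB1, the HP1 genes CBX1, CBX3 and CBX5, and the HUSH gene MPHOSPH8), 18 had H3K27ac near an end in NC and 17 in PKM2-KD, 90% and 85% beside 77.9% and 64.7% of all genes. NONO lay at 9 and 5, 45% and 25% beside 28.4% and 10.1%, and H3T11ph at 4 and 5, 20% and 25% beside 17.8% and 17.3%. With 20 genes these counts were not tested. TRIM28, itself on chromosome 19, had NONO at 22.6 in NC and none in NONO-KD, H3T11ph at 5.70 in NC and none in PKM2-KD, and H3K27ac at 6.12 and 9.45. SETDB1 had NONO at 16.1 in NC and 90.2 in NONO-KD, no H3T11ph, and H3K27ac at 8.50 and 11.1. MPHOSPH8 had NONO at 30.1 and 38.3, H3T11ph at 13.8 in PKM2-KD alone, and H3K27ac at 8.32 and 14.6.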

How the data were processed

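Peak lists of 6 CUT&Tag libraries (NONO, H3T11ph and H3K27ac, 1 library for each target and condition) were used. Per the submitters' processing notes, the tools were FastQC 0.11.9, cutadapt 1.18, SAMtools 1.3.1, MACS2 2.1.1.20160309 and DESeq2, with the genome build hg38. The aligner, the treatment of duplicates and any control library are not given in the sources used here. Each list the authors deposited gives for every region a fold (a ratio of the summit to its local background), p and q as −log10 values, a score that follows q, and a summit offset. The authors' lists were called per library, with q near 0.05 as threshold, and the lists differ in form as described above. The deposited scores were not used here.

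Positions were compared with the RefSeq gene table of GRCh38.p14, the same assembly as hg38. Moving the gene ends by 5 kb lowered the share of H3K27ac PKM2-KD regions of chromosome 19 near an end from 18.1% to 10.6%. A region counted where it overlapped a window by at least 1 bp, and where it overlapped 2 genes it counted for both. Promoter windows and strands came from the RefSeq promoter table, which matched 210 of the 240 zinc finger genes. Shares carry 95% Wilson intervals, differences Newcombe intervals, and density ratios exact intervals from the binomial distribution of Poisson counts. Counting was tested on simulated data. Scripts used Python 3.11.15, numpy 2.4.6, pandas 2.3.3 and scipy 1.17.1.

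The genes and lists were chosen with earlier results of these data known. Named genes were the 3 with the highest fold near an end in each list, those with a region in all 6 lists, the 3 with most interior regions, the 3 longest with none near an end, the 5 with the highest lower H3T11ph fold of both lists, and a set of 10 (ZNF274, ZNF91, ZNF93, ZNF43, ZNF536, ZNF331, ZNF420, ZNF382, ZNF224 and ZNF700). The other genes listed among those with H3T11ph in both lists, and the genes SETDB1, TRIM28 and MPHOSPH8, were named after their values were seen. Alternatives were a −log10 q of at least 5, regions at least 2 times the narrowest width, windows of 2.5 kb, summits in place of overlap, whole bodies, lists of equal length, genes of 10 to 50 kb, and other genes without zinc finger symbols. Those on the RefSeq start, CpG content, NC fold, neighbours within 2 kb, interior regions near no gene end, and, for genes found again, the other genes without zinc finger symbols, were chosen after seeing the data. Numbers of C2H2 fingers were not counted, as protein sequences were not used here.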

Additional observations from a re-analysis of the deposited data

How the results depend on the processing

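No paired analysis was possible because there was only 1 library in every group. Of 153 alternative values, 105 stayed within the counting interval of the main difference or ratio, or within 1.5 times the main count, 42 moved past that and 6 reversed. Staying within a wide interval is no sign of stability. The differences near an end whose intervals came to hold 0 are given with the results above. The 6 reversed counts were those of H3K27ac in NC only and in knockdown only: 13 and 51 with a −log10 q of at least 5, 10 and 56 with wide regions (at least 2 times the narrowest width), and 9 and 57 with lists of equal length. Differences near an end moved with wide regions to −2.22 points (NONO NC), −1.62 (H3T11ph PKM2-KD) and 14.9 (H3K27ac NC). Windows of 2.5 kb gave −27.6 (NONO in NC), −10.8 (NONO in NONO-KD), −14 (H3T11ph in NC) and 5.93 (H3K27ac PKM2-KD). The RefSeq start alone gave −10.0 (NONO in NC), −2.75 (H3T11ph in PKM2-KD), and, for H3K27ac, 14.8 in NC and 25.9 in PKM2-KD. Genes with no other gene within 2 kb gave −0.942 (NONO-KD) and 26.5 (H3K27ac PKM2-KD), and a −log10 q of at least 5 gave 11 (H3K27ac NC). Interior ratios with wide regions were 0.161 in NC and 0.307 in knockdown (NONO), then 0.294 and 0.424 (H3T11ph) and 0.394 and 0.406 (H3K27ac). The H3K27ac ratio was 0.532 in NC with a −log10 q of at least 5 and 0.556 in PKM2-KD over whole bodies. The difference in genes found again moved for H3K27ac to 12.3 points (15 or more CpG), 42.6 (under 15 CpG), 28.2 (no other gene within 2 kb), 9.47 (wide regions) and 8.68 (2.5 kb). For H3T11ph it was −24.2 under 15 CpG (1 of 11 against 16 of 48 genes, −40.2 to 6.68). For NONO it was −9.52 with wide regions (0 of 3 against 4 of 42 genes, −22.1 to 46.9). The intervals of these H3T11ph and NONO values held 0, and their counts were small. Zinc finger genes with H3K27ac in both lists numbered 105 with a −log10 q of at least 5 and 93 with wide regions, and 15 had it in knockdown only with windows of 2.5 kb. With wide regions, H3T11ph was in NC only at 10, in both at 2 and in knockdown only at 7 genes, and NONO at 3, 0 and 2. With windows of 2.5 kb, H3T11ph was in knockdown only at 35, NONO in both at 23 and in knockdown only at 19, and with lists of equal length NONO was in NC only at 27. The cause of these changes was not tested. The lists hold no read totals, so a region missing from a list shows only that it did not pass the authors' threshold there.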
